A study of Mus musculus with 13 samples.

Results

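Transcript levels of 8 testis-restricted genes were followed in male primordial germ cells of mouse embryos at E14.5, in 4 Tet1 genotypes. The genes were Brdt, Taf7l, Usp26, Slc25a31, Tex101, Tex19.1, Tuba3a and Tuba3b, chosen by name as testis genes whose promoters are silenced by DNA methylation in somatic cells, outside the piRNA and meiosis pathways. They were chosen with earlier results of these data known. All 8 were found among the 35976 symbols of the count table, all 8 passed the filter on low counts, and 14702 symbols were tested. Each library came from 5000 germ cells sorted by an Oct4-GFP reporter that every genotype carried, and each genotype had 3 libraries. WT cells carry normal Tet1, and KO cells a knockout for which the labels do not say what part of the gene is lost. The HxD allele is known to make a TET1 without catalytic activity. The V allele is known to make a TET1 that forms 5-hydroxymethylcytosine but oxidises it no further. The labels do not say how many embryos gave each library. The comparisons ask whether transcripts of these genes depend on TET1 and on its catalytic steps.

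Most genes of this class carry CpG-rich promoters that are methylated and silent in somatic tissues. Primordial germ cells erase DNA methylation over most of the genome, and TET1, which oxidises 5-methylcytosine, is known to take part in clearing promoters of germline genes there. The products of the 8 genes act mainly later, in spermatogonia, spermatocytes and spermatids, so the E14.5 level is an early one.

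The promoters are shown for the 3 genes whose KO libraries all lay below WT (Slc25a31, Usp26 and Brdt) and for Taf7l, whose window had the highest ratio of observed to expected CpG. All 8 genes matched a RefSeq promoter window on GRCm38.p6, from 250 bases before to 50 after the annotated start. The stretches below stop before the first transcribed base of either annotation, run 5′ to 3′ on the gene's strand, and have each CpG in capitals. They cover chr3:40708621-40708854 (plus strand, 17 CpGs in 234 bases) for Slc25a31 and chrX:51801234-51801483 (minus strand, 5 in 250) for Usp26. They cover chr5:107330944-107331115 (plus strand, 11 in 172) for Brdt and chrX:134476506-134476740 (minus strand, 12 in 235) for Taf7l.
Slc25a31: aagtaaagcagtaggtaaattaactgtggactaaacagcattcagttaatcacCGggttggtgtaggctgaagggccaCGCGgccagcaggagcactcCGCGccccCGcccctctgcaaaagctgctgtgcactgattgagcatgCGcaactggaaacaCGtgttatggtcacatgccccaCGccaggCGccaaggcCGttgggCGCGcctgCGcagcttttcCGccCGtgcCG
Usp26: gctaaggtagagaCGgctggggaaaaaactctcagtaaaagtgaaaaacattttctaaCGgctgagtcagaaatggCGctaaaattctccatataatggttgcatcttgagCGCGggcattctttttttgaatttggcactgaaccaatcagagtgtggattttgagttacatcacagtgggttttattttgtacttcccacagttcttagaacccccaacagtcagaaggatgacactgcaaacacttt
Brdt: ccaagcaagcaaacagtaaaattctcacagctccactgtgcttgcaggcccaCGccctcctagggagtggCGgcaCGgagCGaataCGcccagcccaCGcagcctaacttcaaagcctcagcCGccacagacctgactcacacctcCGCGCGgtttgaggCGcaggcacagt
Taf7l: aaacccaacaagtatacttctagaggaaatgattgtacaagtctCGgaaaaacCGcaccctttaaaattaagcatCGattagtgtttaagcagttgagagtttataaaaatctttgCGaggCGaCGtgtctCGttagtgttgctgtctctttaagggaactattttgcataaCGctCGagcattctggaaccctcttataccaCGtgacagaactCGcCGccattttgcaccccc
The CpGs of Slc25a31 lie more thickly towards the gene, while the 5 of Usp26 all lie in the part away from it.

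Over the whole 300-base windows the 8 genes held 5 to 23 CpGs, with a median of 16.5, against a median of 7 over all 32851 RefSeq windows. The 30 windows of 21 late spermatogenic genes (protamines, transition proteins, acrosome and sperm tail genes) had a median of 6. Windows of 45 of the 56 other germ cell genes described below had a median of 17. Those of 11 broadly expressed relatives of the 8 genes, also described below, had a median of 24, above that of the 8. Brdt held 23 CpGs, Slc25a31 22, Tex101 19, Taf7l 17, Tex19.1 and Tuba3b 16 each, and Tuba3a 12. Usp26 held 5, at the 38.0th percentile of all windows, with an observed-to-expected ratio of 0.397 against 1.029 for Taf7l. By CpG content this window of Usp26 is thus unlike the CpG-rich promoters that the set is named for, and the RNA data hold no methylation values for any of them. The Tex101 window, from the RefSeq start, lies inside the longer gene model used for its coordinates below. On both strands, the E-box CACGTG occurred in the windows of Slc25a31, Brdt and Taf7l and in 7.15% of all windows. The E2F-type motif GCGGGAA occurred in those of Slc25a31, Tuba3a and Tuba3b and in 4.6% of all windows. The motif TGACGTCA, which cyclic AMP-responsive factors bind, occurred in 0 of the 8 and in 1.79% of all windows. Each of these motifs holds a CpG, and the shares over all windows were not matched to the CpG content of the 8. No matches of different motifs overlapped in the 8 windows.

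**Figure D1:**
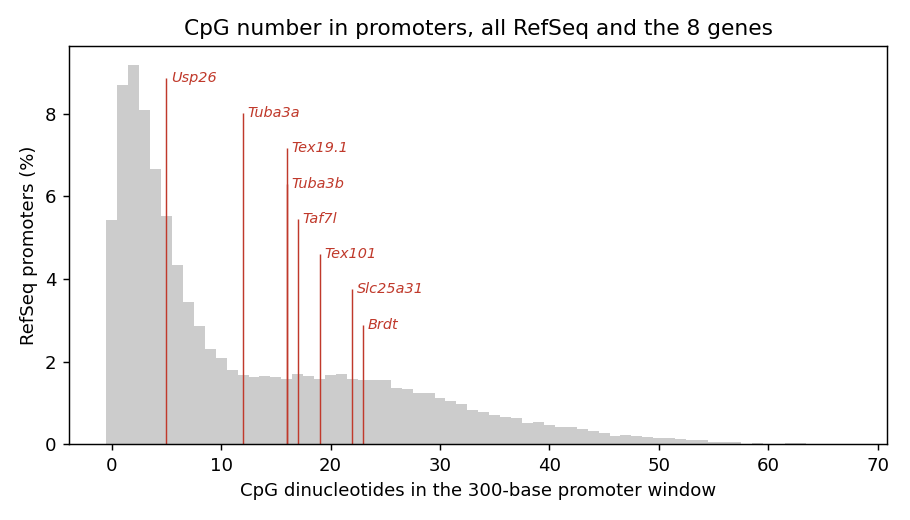
Number of CpG dinucleotides in 300-base promoter windows. Grey bars give the percentage of all 32851 RefSeq windows with each number, and red lines mark the 8 genes, of which 7 held 12 to 23 CpGs and Usp26 held 5.

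Library totals ran from 13584484 to 29641963 counts. Among 9250 genes averaging at least 8 CPM (counts per 1000000 counts of a library, TMM-scaled), 104 had a count of 0 in WT 3, against 0 to 36 in the other 11 libraries. Tet1 itself was at 589 to 639 CPM in WT, 201 to 225 in KO, 536 to 735 in HxD and 364 to 625 in V. It fell in KO by 1.51 on the log2 scale (SE 0.17, edgeR adjusted p = 1.41e-05). All 13 germ cell markers were detected and tested. The 8 markers of Sertoli cells, the supporting cells of the testis, summed to 12.2 to 159 CPM in WT, 19.4 to 62.2 in KO, 8.17 to 42.2 in HxD and 9.88 to 396 in V. The highest sums were in V 2 and, among WT, in WT 3. Of the defining genes, Sox9 was at 0 counts in the 3 WT libraries and at 9.14 CPM in V 2, while Amh was at 5.78 to 59.6 CPM in WT and at 216 CPM in V 2. Cldn11, another of the 8, was at 0 counts in the 3 WT libraries and at up to 4.66 CPM in mutant libraries. Against WT, DESeq2 called Cldn11 higher in each mutant, while edgeR called no Sertoli marker. Over all genes DESeq2 called 105 higher in KO, 85 in HxD and 48 in V. Of the other marker lists, those of Leydig, interstitial, macrophage and erythroid cells summed to at most 34.6 CPM in any library. The 6 endothelial markers summed to 122 to 280 CPM, of which Pecam1, also expressed in germ cells, made up 119 to 273 CPM. Sertoli sums of the genotypes overlapped, and their part in the results below was not tested.

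Against WT, no gene of the 8 passed edgeR's quasi-likelihood test with Benjamini-Hochberg adjustment over all genes, in any mutant. In KO all 8 had a negative log2 fold change, in HxD all 8 and in V 7, with medians of -1.23, -0.64 and -0.80. The medians over all genes tested were 0.0026, -0.02 and 0.01. The 3 mutants share the WT libraries, so these directions are not independent of each other. At an unadjusted p under 0.05, 3 of the 8 were lower in KO (Slc25a31, Usp26 and Brdt), 1 in HxD (Usp26) and 2 in V (Usp26 and Tuba3a), and 0 were higher. Over all genes, 4.54% were lower at that p in KO, 4.82% in HxD and 3.2% in V, and 3.75%, 3.42% and 2.85% were higher. After adjustment 0.15% of all genes were lower and 0.068% higher in KO, 0.0204% and 0.0136% in HxD, and 0% either way in V. DESeq2 called 1 of the 8 in KO (Usp26, adjusted p = 0.0107) and 0 in HxD and V. DESeq2 called more genes in all, with 0.953% of the genes it gave an adjusted p lower in KO, 0.795% in HxD and 0.251% in V. WT 3 stood apart by its zeros, and V 3 had the smallest total count. With WT 3 and V 3 left out edgeR called 0 of the 8 in each mutant and all 8 had negative values in all 3. With only WT 1 left out edgeR also called 0 of the 8, and 7 had negative values in each mutant. In these bulk libraries, fewer cells with a transcript and less transcript per cell cannot be told apart.

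**Figure D2:**
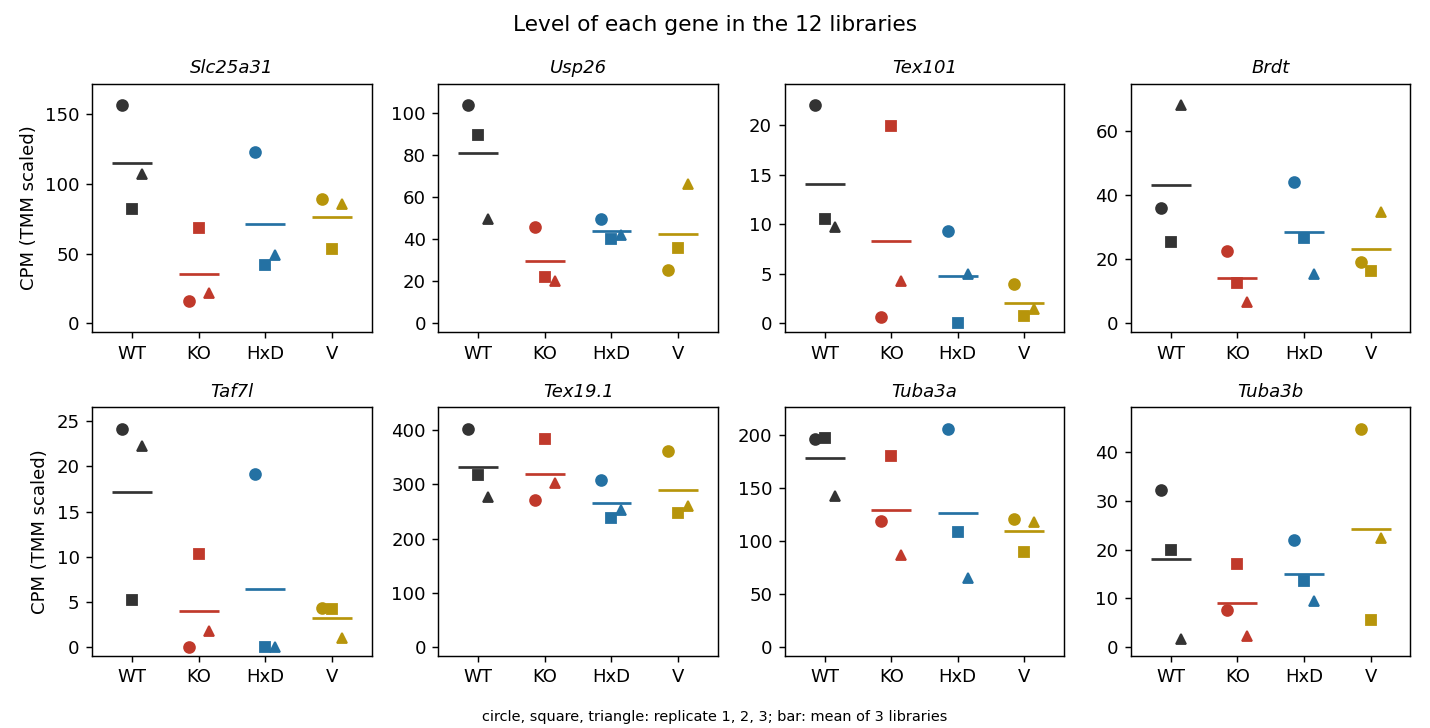
TMM-scaled CPM (y axis) of each gene in the 12 libraries, by genotype (x axis), with replicates 1, 2 and 3 as circle, square and triangle and a bar at the mean of 3 libraries. The 3 KO libraries lie below every WT library for Slc25a31, Usp26 and Brdt, and library HxD 1 is the highest of its genotype in all 8 panels.

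Slc25a31 (chromosome 3, 40708855 to 40726096, plus strand, GRCm38) encodes the ADP/ATP carrier of the inner mitochondrial membrane that germ cells use in meiosis. Its level was 157, 81.9 and 107 CPM in WT 1 to 3, and 15.9, 68.6 and 22.03 CPM in KO 1 to 3. Every KO library was below every WT library, with KO 2 close to the lowest WT library and the other 2 far under it. In HxD it was at 123, 42.1 and 49.2 CPM and in V at 89.0, 53.5 and 85.6 CPM, both overlapping WT. The KO value was a log2 fold change of -1.70 (SE 0.40, edgeR adjusted p = 0.0712), the largest of the 8 with an SE under 0.5, and it missed the threshold. The HxD and V values were -0.69 (SE 0.39, edgeR adjusted p = 0.618) and -0.60 (SE 0.39, 0.863). The KO call turned on single libraries: without KO 2 the log2 fold change was -2.60 (edgeR adjusted p = 3.74e-06), and without WT 2 it was -1.89 (0.00194). Without the low-count filter the adjusted p was 2.45e-07.

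Usp26 (chromosome X, 51753959 to 51801233, minus strand) encodes a deubiquitinating enzyme of the testis. WT held 104, 89.5 and 49.6 CPM, and KO 46.0, 22.2 and 20.1 CPM. HxD held 49.6, 40.1 and 41.9 CPM and V 25.5, 35.7 and 66.1 CPM. WT 1 and WT 2 stood well above all mutant libraries, while WT 3 was level with HxD 1 and under V 3. The log2 fold changes from WT were -1.46 in KO (SE 0.36, edgeR adjusted p = 0.0881), -0.88 in HxD (SE 0.35, 0.539) and -0.93 in V (SE 0.36, 0.723). In KO it was called without WT 3 (-1.72, edgeR adjusted p = 0.0262), without KO 1 (-1.94, 0.0116) and without the low-count filter (0.00107).

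Brdt (chromosome 5, 107331159 to 107387058, plus strand) encodes the testis member of the BET family, proteins that bind acetylated histones. It was at 36.0, 25.5 and 68.0 CPM in WT and 22.7, 12.7 and 6.64 CPM in KO, with no overlap. HxD had 44.0, 26.5 and 15.3 CPM and V 19.05, 16.2 and 34.8 CPM, and both ranges crossed that of WT. The KO value was -1.63 (SE 0.49, edgeR adjusted p = 0.217), the HxD value -0.59 (SE 0.48, 0.794) and the V value -0.89 (SE 0.48, 0.833). Without the low-count filter Brdt was called in KO (edgeR adjusted p = 0.0379).

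Slc25a31, Usp26 and Brdt were thus the genes without overlap between KO and WT, 3 of the 8, where 8.15% of all tested genes lay wholly below WT in the same way. In HxD, Usp26 and Tex101 lay below WT in every library (7.22% of all genes), Usp26 by a margin under the rounding of the values given here. In V these were Tex101, Taf7l and Tuba3a (6.06% of all genes).

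Taf7l (chromosome X, 134460118 to 134476490, minus strand) encodes a germ cell paralog of TAF7, a subunit of the general transcription factor TFIID. It was one of the most uneven genes of the set. Among genes within 2-fold of its level, its spread between libraries, as fitted by edgeR, was at percentile 83.8. By the same measure Slc25a31 was at percentile 98.4, Tuba3a at 95.8, Tuba3b at 78.7, Usp26 at 69.0, Brdt at 67.1, Tex101 at 65.2 and Tex19.1 at 60.2. WT had 24.1, 5.18 and 22.3 CPM, and V had 4.29, 4.25 and 1.03 CPM, all below WT. KO had 0, 10.3 and 1.80 CPM, and HxD had 19.11, 0.0428 and 0 CPM. The values of 0 stand for no read in KO 1 and HxD 3, which allows up to 0.133 and 0.194 CPM at a limit of 3 counts, and HxD 2 had 1 read. These limits cover counting error only. In KO and HxD, 1 library lay within the WT range and the other 2 below it, near or at 0 in HxD. The log2 fold changes were -2.09 in KO (SE 1.56, edgeR adjusted p = 0.805), -1.42 in HxD (SE 1.53, 0.918) and -2.42 in V (SE 1.58, 0.864).

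Tex101 (chromosome 7, 24668007 to 24676675, minus strand), a lipid-anchored surface protein of germ cells needed for sperm maturation, also varied between libraries. Among genes near its level its spread was at percentile 65.2, below that of Taf7l. WT had 22, 10.6 and 9.68 CPM. V had 3.98, 0.724 and 1.47 CPM, and HxD had 9.30, 0 and 4.98 CPM, the 0 allowing up to 0.128 CPM by counting error alone. KO had 0.663, 19.9 and 4.32 CPM, so that KO 2 lay inside the WT range. The V value was the largest difference for this gene, at -2.77 (SE 1.39, edgeR adjusted p = 0.821). The HxD value was -1.56 (SE 1.33, 0.823) and the KO value -0.76 (SE 1.31, 0.999). With intervals this wide (95%, -5.61 to 0.07 in V and -3.43 to 1.898 in KO), even large changes in level could not be detected for Tex101.

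Tex19.1 (chromosome 11, 121146143 to 121148319, plus strand) encodes a protein that restrains retrotransposons in germ cells and placenta, and its loss impairs male meiosis. It had the highest level per length of the 8 and the smallest ratio of the highest to the lowest of the 12 libraries (1.69). It was at 401, 316 and 276 CPM in WT, 271, 383 and 301 in KO, 307, 238 and 252 in HxD and 361, 247 and 259 in V. All 4 genotypes overlapped. The log2 fold changes from WT were -0.06 in KO (95% interval -0.43 to 0.32, edgeR adjusted p = 1), -0.32 in HxD (-0.69 to 0.06, 0.620) and -0.19 in V (-0.57 to 0.18, 1). The KO sign was reversed to 0.10 without WT 1 and to 0.05 without KO 1. The KO interval excludes a decline to the size fitted for Slc25a31, Usp26 or Brdt. Of its 50-base stretches in the transcript annotation, 2.67% also occur in the paralog Tex19.2.

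Tuba3a (chromosome 6, 125278274 to 125286042, minus strand) and Tuba3b (chromosome 6, 145615757 to 145621479, plus strand) encode alpha-tubulins of the testis, building blocks of microtubules. Of the 50-base stretches of Tuba3a transcripts 35.3% occur in another gene, mostly Tuba3b, and of those of Tuba3b 29.55%. The way reads shared by both were counted is not given in the sources used here, so the split between them is uncertain. Exons of Tuba3a also overlap 4930417O13Rik on the other strand, whose reads cannot be told apart without a known strand setting. Tuba3a was at 197, 197 and 143 CPM in WT, 119, 181 and 87.3 in KO, 206, 108 and 65.1 in HxD and 122, 90.0 and 118 in V. All V libraries were below WT, while KO and HxD overlapped it. The Tuba3a log2 fold changes were -0.70 in V (SE 0.28, edgeR adjusted p = 0.757), -0.47 in KO (SE 0.28, 0.662) and -0.50 in HxD (SE 0.28, 0.617).

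Tuba3b was weaker and was the gene of the set with a positive value in a mutant. It was at 32.4, 19.9 and 1.75 CPM in WT, 7.64, 17.0 and 2.25 in KO, 22.02, 13.61 and 9.56 in HxD and 44.8, 5.52 and 22.4 in V. The lowest level of all 12 was in WT 3 and the highest in V 1. The log2 fold change was -1.01 in KO (SE 0.78, edgeR adjusted p = 0.827), -0.26 in HxD (SE 0.77, 1) and 0.43 in V (SE 0.78, 1). The V sign turned to -0.11 without WT 3 and to -0.35 without V 1, and the HxD sign to 0.48 without WT 1 and to 0.0032 without HxD 3.

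**Figure D3:**
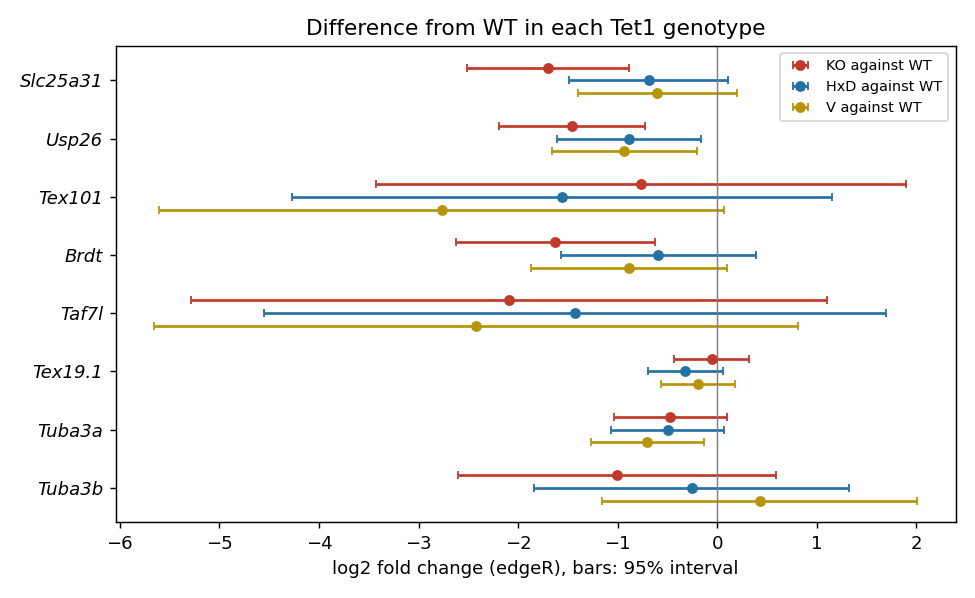
Log2 fold change from WT (x axis) of the 8 genes (y axis) in KO, HxD and V, from edgeR, with 95% intervals as bars. Intervals of Slc25a31, Usp26 and Brdt in KO, Usp26 in HxD and V, and Tuba3a in V end below 0 before adjustment, and those of Tex101 and Taf7l are the widest.

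Libraries of one genotype differed in the same direction for most of the 8 genes. HxD 1 was the highest HxD library for 8 of 8, although it was the highest for 32.3% of all genes tested. KO 2, WT 1 and V 1 were each the highest of their genotype for 6 of 8, against 36%, 35.3% and 34% of all genes. HxD 1 was also the library with the largest total count. WT 1 and KO 2, in contrast, had the smallest totals of their genotypes (20213496 and 20842705 counts), and V 1 lay between the other V libraries. Symbols with a count above 0 numbered 13376, 12231 and 12520 in HxD 1 to 3, and 12761, 14736 and 13234 in KO 1 to 3. They numbered 14780, 14843 and 11529 in WT 1 to 3, and 13840, 15715 and 12100 in V 1 to 3. HxD 1 and KO 2 thus had the most of their genotypes, while WT 1 and V 1 did not. The part of this number in the orders was not tested. V 2 was the lowest V library for 6 of 8 (20.4% of all genes) and WT 3 the lowest WT library for 5 of 8 (44%). V 2 and WT 3 had the highest Sertoli sums of their genotypes (396 and 159 CPM), and so did KO 2 of its own (62.2 CPM), which was high for the 8 genes. The part of Sertoli RNA in these orders was not tested. The median log2 fold change of the 8 in HxD moved from -0.64 to -1.05 without HxD 1 and to -0.38 without HxD 3. In KO it was -0.82 without WT 1 and -1.71 without KO 2. In V it ranged from -0.63 without V 2 to -1.03 without V 3. With WT 3 and V 3 both left out, the medians were -1.34 in KO, -0.77 in HxD and -0.85 in V.

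Among the mutants, the 8 genes were compared in 3 further pairs, and no gene was called by edgeR or DESeq2. Slc25a31 was higher in HxD than in KO by 1.01 on the log2 scale (SE 0.39, edgeR adjusted p = 0.884) and higher in V than in KO by 1.098 (SE 0.40, adjusted p = 1). KO 2 was the highest KO library for Slc25a31, and without it these differences were larger and called, at 1.91 (edgeR adjusted p = 0.00397) and 2.001 (0.00106). Without the low-count filter, V against KO was also called for Slc25a31 (1.1, edgeR adjusted p = 0.0255). Brdt was higher in HxD than in KO by 1.03 (SE 0.48, edgeR adjusted p = 0.884). At an unadjusted p under 0.05, 2 of the 8 were higher in HxD than in KO, 1 in V than in KO, and 0 differed between V and HxD. Over all genes 1.88% were higher and 2.79% lower at that p in HxD than in KO, 2.29% and 1.81% in V than in KO, and 3.43% and 1.63% in V than in HxD. After adjustment edgeR called 0.0068%, 0.0204% and 0% of all genes in these pairs, and DESeq2 0.607%, 0.425% and 0.642%. The Slc25a31 difference between V and HxD was 0.09 (95% interval -0.71 to 0.88).

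Broadly expressed relatives of these genes gave a level for comparison, on the scale of CPM per kilobase of exon. In WT, Slc25a31 was at 54.2 ± 17.8 (SD, n = 3), Slc25a4 at 273 ± 41.2 and Slc25a5 at 72.1 ± 16.1, the latter pair being the carriers of somatic tissues. Slc25a31 thus made up 8.88% to 17.4% of the per-length level of the 3 carriers in WT libraries, 1.83% to 7.58% in KO, 5.09% to 13.4% in HxD and 5.48% to 10.6% in V. Brdt, at 8.44 ± 4.33, was far below Brd2 at 69.6 ± 0.826 and Brd3 at 47.6 ± 9.91, broadly expressed BET genes. Taf7l, at 7.65 ± 4.65, was below Taf7 at 27.6 ± 4.06. Usp26, at 19.6 ± 6.77, was near Usp37 at 14.98 ± 0.666, and these 2 ranges overlapped.

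Tuba3a, with the uncertainty above, was at 119 ± 20.8 in WT, higher in each WT library than the next alpha-tubulin, Tuba1b (69.5 ± 20.8). It made up 41.6% to 53.7% of the 7 measured alpha-tubulins in WT libraries, 33.7% to 47.1% in KO, 22.5% to 51.3% in HxD and 34.1% to 38.4% in V. Tuba8 had 0 counts in all 12 libraries. By level per length in WT the order was Tex19.1 (177 ± 34.2), Tuba3a, Slc25a31, Usp26, Tuba3b (10.1 ± 8.68), Tex101 (8.50 ± 4.15), Brdt (8.44 ± 4.33) and Taf7l. The libraries of Tex19.1, Tuba3a and Slc25a31 did not overlap with the next gene down, nor did those of Slc25a31 with Usp26, while Usp26, Tuba3b, Tex101, Brdt and Taf7l overlapped with their neighbours in that order.

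**Figure D4:**
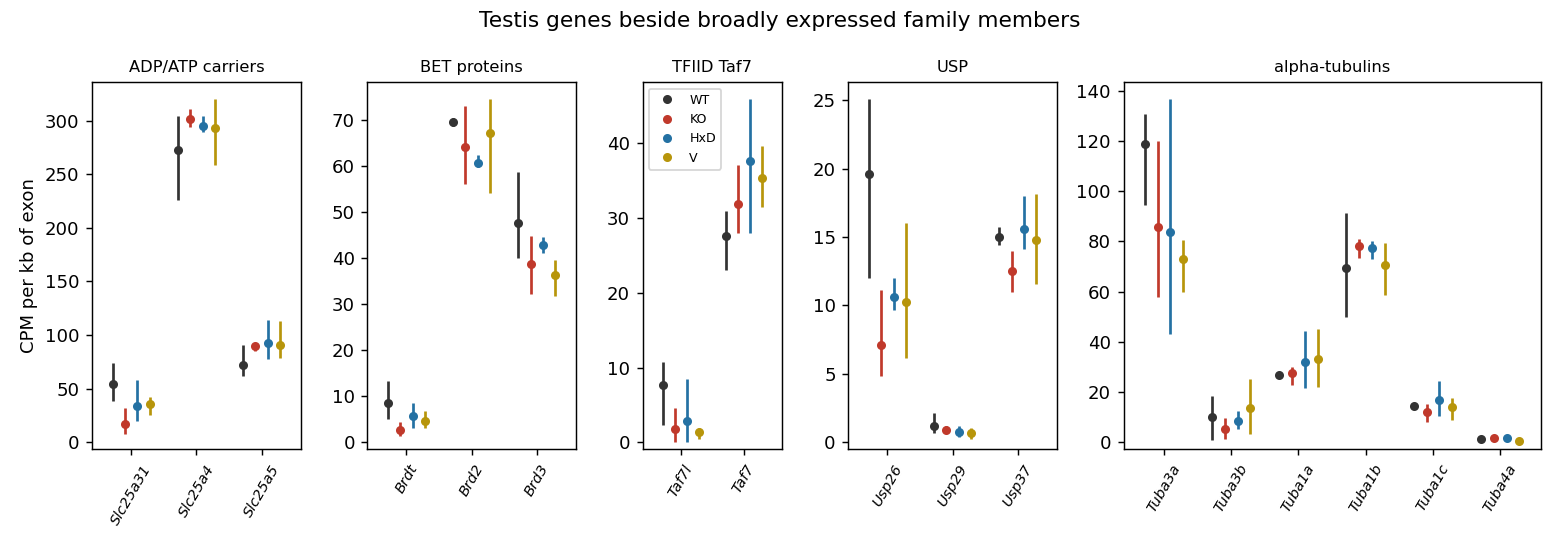
Level per kilobase of exon (y axis, CPM per kb) of the testis genes and of broadly expressed members of their families (x axis), with a point at the mean and a line from the lowest to the highest of 3 libraries for each genotype. The means of Slc25a31, Brdt and Taf7l lie below those of their relatives, and Tuba3a lies above the other alpha-tubulins in WT.

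Of the 13 relatives, 12 were tested and 0 were called in any mutant. At an unadjusted p under 0.05, 0 differed in KO, 1 was higher in HxD (Taf7) and 1 was lower in V (Brd3). Over all genes at that p, 3.42% were higher in HxD and 3.2% lower in V. DESeq2 called 0 of the relatives in each mutant. Their median log2 fold changes were -0.05 in KO, 0.13 in HxD and -0.03 in V. Slc25a4, for example, was at 0.15 in KO (SE 0.15, edgeR adjusted p = 0.938).

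Among 56 other germ cell genes, chosen as genes that are mostly known for promoters methylated in somatic cells, 50 were tested. Like the 8, they were chosen with earlier results of these data known, so their values are no independent support. Over all 14702 genes tested, 7271 had negative values in KO, 7591 in HxD and 7185 in V. Of the 50, 41 were negative in KO, 42 in HxD and 43 in V, with medians of -0.54, -0.51 and -0.42. In KO 6 were called lower and 1 higher, led by Mael, a piRNA pathway gene (-2.45, SE 0.39, edgeR adjusted p = 0.0018). The others named by the rule were the RNA-binding gene Dazl (-1.05, SE 0.19, 0.00943), Rbm44 of the intercellular bridge (-1.22, SE 0.23, 0.0111), the Tudor domain gene Tdrd1 (-2.08, SE 0.40, 0.0127) and, higher, the homeobox gene Rhox5 (0.89, SE 0.19, 0.0434). In HxD 2 were called lower, Mael and Dazl, and in V 0 by edgeR. At an unadjusted p under 0.05, 19 were lower in KO, 20 in HxD and 11 in V, and 1 was higher in each. Over all genes, 4.54%, 4.82% and 3.2% were lower at that p, and edgeR called 0.15%, 0.0204% and 0% lower. DESeq2 called 8, 6 and 2 of the 50 lower in KO, HxD and V, against 0.953%, 0.795% and 0.251% of all genes. With WT 3 and V 3 left out edgeR called 3, 1 and 0 of the list lower.

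The 13 germ cell markers summed to 5468 to 5513 CPM in WT, above the 4388 to 4789 CPM in KO, 4405 to 5213 in HxD and 4819 to 5097 in V. Dazl and Ddx4, which are among these markers, are themselves germ cell genes of the list above. Without them, a step chosen after seeing the data, the 11 remaining markers summed to 2773 to 3029 CPM in WT, 2977 to 3493 in KO, 3356 to 3587 in HxD and 2969 to 3533 in V. In edgeR at an unadjusted p under 0.05, 3 of the 13 were higher in KO, 3 in HxD and 4 in V. At that p 2 were lower in each, and 3.75%, 3.42% and 2.85% of all genes were higher. DESeq2 called Pou5f1, Dppa5a and Tfap2c higher in HxD and Pou5f1 and Dppa5a in V. Over all genes it called 85 higher in HxD and 48 in V, of 14340 given an adjusted p in each. After adjustment edgeR called none of the 13 higher in any mutant. DESeq2 called Dazl lower in KO and HxD and Ddx4 lower in KO.

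Pearson correlations of log2 CPM over the 12 libraries gave the genes closest in pattern to each of the 8, out of 12822 tested genes with a gene name. The nearest was Zxdc for Slc25a31 (r = 0.919), Zfp518a for Usp26 (0.910), Herc2 for Brdt (0.919), Cdh15 for Taf7l (0.936) and Fkbp6 for Tex101 (0.895). It was Spaca6 for Tex19.1 (0.962), Anp32e for Tuba3a (0.947) and Themis2 for Tuba3b (0.890). Fkbp6, a germ cell gene of the piRNA pathway, is a member of the list of 56. The next genes in order were Fam69a and Ccdc64 for Slc25a31, Ofd1 and Cand1 for Usp26, Eif2ak4 and Iars for Brdt, and Naip5 and Rgma for Taf7l. For Tex101 they were G6pc3 and Paqr4, for Tex19.1 Agrn and Serpinh1, for Tuba3a Garem and Dgkd, and for Tuba3b Tbc1d7 and Elp6. These are the highest of many correlations over few libraries that share genotype and depth, and they are given as a description. None of the 8 was among the 3 nearest genes of another.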

How the data were processed

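The deposited table holds raw counts, whole reads for each gene symbol. The submitters' processing notes name STAR 2.7.10b and featureCounts 2.0.3, Trim Galore 0.6.7, FastQC and SAMtools 1.9, and list GRCm39 and mm10 without saying what each was for. Not given in the sources used here are the annotation, the strand setting and the handling of reads that map to several genes. Of the table's columns, 1 matched no sample and stayed out, and WT 4 was not analysed here. Nothing in the labels says that replicates were separate animals, so p-values measure only a spread between libraries that may be technical. No 2 libraries held identical counts.

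The default expression filter of edgeR 4.0.16 (R 4.3.3) left 14702 genes, whose counts were TMM-scaled and fitted with edgeR's quasi-likelihood F-test, with genotype as a factor, in 1 model of all 12 libraries. Tests were two-sided, adjusted over all genes tested, with a threshold of 0.05. CPM use the same scaling, and log2 CPM a prior count of 2. Levels per kilobase use the union of exons in GENCODE M21 (GRCm38), matched by symbol, as are the coordinates, since the table has none; promoter sequences are from RefSeq. Shared 50-base stretches were counted in GENCODE transcripts on either strand.

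The 8 genes and all lists were chosen with earlier results of these data known. The text names the 8 genes, Tet1, up to 4 called genes in each direction of the list of 56, called relatives and partners, and the 3 nearest genes in pattern. Genes named outside this rule are examples or were chosen after their values were seen. Alternatives were RLE scaling, DESeq2 1.42.0, no filter, a stricter filter (at least 1 CPM in every library of a genotype), fits of 2 genotypes, a replicate block, leaving out each library, and leaving out WT 3 with V 3.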

Additional observations from a re-analysis of the deposited data

How the results depend on the processing

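In the order KO, HxD and V against WT, then HxD against KO, V against KO and V against HxD, the genes called over all genes were 32, 5, 0, 1, 3 and 0. They were 239, 199, 84, 87, 61 and 92 with DESeq2, and 148, 67, 32, 8, 21 and 5 without the low-count filter. With the stricter filter they were 14 and 1 for KO and HxD against WT and 1 for V against KO. With 2 genotypes only these 3 were 12, 2 and 0, and with WT 3 and V 3 left out 11, 2 and 0. Leaving out single libraries gave 15 to 95, 1 to 47, 0 to 10, 1 to 14, 2 to 18 and 0 to 11. The causes were not tested.

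With the replicate number as a block the counts were 104, 45, 8, 8, 16 and 2, and Slc25a31 (-1.64, edgeR adjusted p = 0.000681) and Usp26 (-1.49, 0.00581) were called in KO. Deviations of same-numbered libraries correlated at -0.06 to 0.09, and 5 of 12 libraries correlated best with their own number, so the numbers are not known to pair the samples. The block turned the sign of Tuba3b in HxD against WT (0.15), of Taf7l in HxD against KO (-0.85) and of Taf7l in V against HxD (0.062). Leaving out WT 3 and V 3 turned Tuba3b in V against WT (-0.057), Taf7l in V against KO (0.087) and Slc25a31 in V against HxD (-0.0050).

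Leaving out single libraries also turned signs. The log2 fold changes then ran from -0.21 to 0.10 for Tex19.1 in KO against WT, and for Tuba3b from -0.79 to 0.48 in HxD and from -0.35 to 1.16 in V against WT. For HxD against KO they ran from -1.74 to 0.93 for Tex101, -7.07 to 2.82 for Taf7l and -0.57 to 0.29 for Tuba3a. For V against KO they ran from -0.91 to 1.82 for Taf7l, -0.32 to 0.018 for Tex19.1 and -0.45 to 0.091 for Tuba3a. For V against HxD they ran from -0.18 to 0.74 for Slc25a31, -0.52 to 0.21 for Usp26, -0.70 to 0.16 for Brdt, -1.58 to 6.74 for Taf7l, -0.070 to 0.24 for Tex19.1, -0.51 to 0.34 for Tuba3a and -0.11 to 1.16 for Tuba3b. Slc25a31, Usp26 and Brdt in KO kept a negative sign in each of 13 alternatives and were called in 4, 5 and 1 of them. Taf7l and Tex101 had SEs above 1 in each comparison with WT. By counting error alone, their libraries without a read have an upper bound of 0.128 to 0.194 CPM. In these libraries (KO 1, HxD 2 and HxD 3), 13, 36 and 22 genes averaging at least 8 CPM also had a count of 0. The level can thus lie above that bound.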

Other observations

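Genes of late spermatogenesis, which were not matched by stage to the 8 testis genes, were mostly near 0. Of 25 such genes, 10 had a count of 0 in all 12 libraries, among them the protamines Prm1 and Prm2, the transition protein gene Tnp1 and the sperm glycolysis gene Pgk2, and 10 passed the filter. None of these 10 was called in a mutant by edgeR or DESeq2, with 2 lower in KO and 1 lower in HxD in edgeR at an unadjusted p under 0.05. Over all genes at that p, 4.54% were lower in KO and 4.82% in HxD. All 8 testis genes averaged at least 1 CPM, against 9 of the 25.

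Partners of the 8 proteins were also looked at, 8 in number, of which 7 were tested and 0 called in a mutant by edgeR or DESeq2, with 1 lower in each mutant in edgeR at an unadjusted p under 0.05. That gene was Taf1, the largest subunit of TFIID, named here after its values were seen. It was at 383, 335 and 373 CPM in WT, 298, 188 and 185 in KO, 254, 280 and 150 in HxD and 170, 244 and 247 in V, so that every mutant library was below every WT library. The log2 fold changes were -0.70 in KO (SE 0.21, edgeR adjusted p = 0.215), -0.67 in HxD (SE 0.21, 0.384) and -0.72 in V (SE 0.21, 0.502). Of all tested genes, 4.54% (KO), 4.82% (HxD) and 3.2% (V) were lower in edgeR at an unadjusted p under 0.05. Genes with every mutant library below every WT library made up 8.15%, 7.22% and 6.06%, in the same order. Each mutant was compared with the same WT libraries, so the Taf1 differences are not independent of each other.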
